A study of Mus musculus with 12 samples.

Results

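Cohesin, condensin and the SMC5/6 complex were followed through 33 genes for their subunits and regulators in hematopoietic stem and progenitor cells (HSPCs) of the mouse. The genes were taken as a fixed list of symbols, and all 33 were found among the 24016 genes of the deposited tables. Of the 33, 20 belong to cohesin and its regulators, 8 to condensin and 5 to SMC5/6.

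The RNA-seq libraries came from C57BL/6 mice of 4 genotype groups named WT, Smc3, Npm1 and Double, with 3 libraries each. All mice, WT included, received 7 injections of pIpC, a double-stranded RNA mimic, from an age of 4 to 6 weeks. Cells were collected 4 to 6 weeks afterwards, and red cells and lineage-marked cells were removed. The labels name no allele, no Cre driver and no sex, and nothing in them ties a library to a mouse, so the p-values measure the spread between libraries, which may be technical. The series title concerns acute myeloid leukaemia with mutated NPM1 and cohesin.

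SMC proteins are long ATPases that pair up and close into rings or clamps around DNA with partner subunits. Cohesin holds sister chromatids together from replication until anaphase and extrudes loops that CTCF can halt, condensin compacts mitotic chromosomes, and SMC5/6 acts in DNA repair and recombination. In blood, cohesin subunits such as STAG2, RAD21, SMC3 and SMC1A are recurrently mutated in myeloid leukaemia. NPM1, a nucleolar chaperone, is another frequent target.

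The authors deposited 3 tables, one for each genotype against WT, without values per library. Each fold change below therefore carries the standard error of the authors' DESeq2 fit over 3 against 3 libraries. No library values can be set beside it. The deposited fold changes appear to be shrunk towards 0, because Smc1b, at a mean of 1.02 in Smc3, had a standard error of only 0.10. They may be smaller than plain ratios of group means, also in the differences between genotypes. The 3 comparisons share the WT libraries. A gene was called when its deposited adjusted p was under 0.05. In bulk RNA, fewer cells of a type and less RNA per cell cannot be told apart.

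Depth, inferred from size factors, was about 10.2 to 22.0 M reads per library in WT, 19.8 to 51.6 in Smc3, 10.6 to 33.1 in Npm1 and 27.8 to 35.4 in Double. The mean size factor of a genotype was 2.15, 1.36 and 2.10 times that of WT for Smc3, Npm1 and Double. The summed mean of 4 Y-linked genes was 2022 and 2280 in the Smc3 and Double tables and 3.8 in the Npm1 table, so the Smc3 and Double groups held libraries of male mice, whose number could not be read from the tables. Of 5 sex-linked genes, Xist included, 0 were called in Smc3 and 0 in Double. Xist stood at -0.06 in both per the authors' deposited tables. The highest of these fold changes was 0.13 in Smc3 and 0.08 in Double, although WT held almost no Y-linked reads in the Npm1 comparison. The 0 calls therefore do not show that these groups matched WT in sex. The progenitor genes Kit, Myb and Cd34 had means of 8121, 14544 and 4321 normalized counts in the Smc3 table of the authors' deposited tables, against 25.0 for the T cell gene Cd3e. Of the 12 stem and progenitor markers, 5 were higher in Smc3, 1 was lower in Npm1 and 5 were higher in Double. Of the 12 erythroid markers, 7 were lower in Smc3, 2 higher and 3 lower in Npm1, and 10 lower in Double, with medians of -0.48, -0.01 and -0.76. Mast cell and basophil markers were higher in 7 of 7 for Smc3, lower in 6 of 7 for Npm1 and higher in 2 of 7 for Double. Of 11 neutrophil markers, 4, 4 and 3 were tested in Smc3, Npm1 and Double. The primary granule genes Elane and Mpo were higher in Smc3 and both, with Prtn3, in Double. In Npm1 0 of the 4 tested markers were called, and all 4 lay below 0, from -0.61 to -0.44. The late neutrophil genes, most without an adjusted p, lay below 0 in all 3 tables, as did Mmp9 at -0.57, -0.52 and -0.68 per the authors' deposited tables. Among monocyte markers 1 of 9 was higher in Smc3, 0 of 9 were called in Npm1, and 2 of 9 were higher and 1 lower in Double. B cell markers were lower in 1 of 8 for Smc3, called in 0 of 7 for Npm1 and lower in 2 of 8 for Double, while T and NK cell markers were higher in 2 of 10, lower in 1 of 9 and higher in 1 of 10.

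The proximal promoters of 4 of the genes whose transcripts rose or fell in the comparisons below are shown as examples. Other called genes with a promoter entry, Nsmce1, Rec8 and Smc2 among them, are not shown. Each line gives the 250 bases upstream of the start annotated by RefSeq on GRCm38.p6, 5′ to 3′ on the strand of the gene, and 26 of the 33 genes had an entry in that table. Capitals mark the CCAAT box, the cell cycle elements TTTGAA and also TTCGAA, or the E2F motifs TTTCCCGC, then TTTGGCGC and lastly TTTCGCGC, on either strand. A CCAAT box on the other strand reads ATTGG. Pttg1 lies at chr11:43425982-43426231 on the minus strand, Wapal at chr14:34673678-34673927 on the plus strand, Ncapd2 at chr6:125191587-125191836 on the minus strand and Ncaph2 at chr15:89355469-89355718 on the plus strand.
Pttg1: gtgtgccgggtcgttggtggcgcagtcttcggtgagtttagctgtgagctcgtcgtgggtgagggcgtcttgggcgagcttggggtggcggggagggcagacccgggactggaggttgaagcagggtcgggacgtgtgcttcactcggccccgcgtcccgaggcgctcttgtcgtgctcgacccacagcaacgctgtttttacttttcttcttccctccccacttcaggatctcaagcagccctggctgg
Wapal: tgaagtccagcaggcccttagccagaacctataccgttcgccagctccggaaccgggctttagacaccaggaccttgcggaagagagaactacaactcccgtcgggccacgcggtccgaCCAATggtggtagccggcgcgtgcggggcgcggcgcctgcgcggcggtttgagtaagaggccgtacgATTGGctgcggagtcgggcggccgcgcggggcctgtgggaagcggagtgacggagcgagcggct
Ncapd2: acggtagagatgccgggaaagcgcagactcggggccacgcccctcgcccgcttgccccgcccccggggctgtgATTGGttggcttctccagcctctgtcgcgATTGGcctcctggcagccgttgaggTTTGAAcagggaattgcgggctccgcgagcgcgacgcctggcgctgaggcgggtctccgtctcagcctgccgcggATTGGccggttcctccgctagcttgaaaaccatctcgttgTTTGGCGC
Ncaph2: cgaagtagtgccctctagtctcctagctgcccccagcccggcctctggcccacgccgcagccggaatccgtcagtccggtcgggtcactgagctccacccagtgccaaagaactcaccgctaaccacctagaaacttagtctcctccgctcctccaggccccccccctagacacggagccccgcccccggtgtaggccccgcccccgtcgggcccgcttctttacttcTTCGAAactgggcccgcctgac

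The CCAAT box is known to bind NF-Y, the cell cycle elements occur in many mitotic genes, E2F factors act at the start of S phase, and CCCTC, searched but not capitalized, is the core of the CTCF motif. The Ncapd2 promoter held 3 reversed CCAAT boxes, TTTGAA and TTTGGCGC. Wapal held CCAAT once on each strand, Ncaph2 held TTCGAA, and none of the capitalized motifs stood in the Pttg1 window. With 1 promoter per gene, CCAAT was found in 13 of the 26 member promoters (50%) and in 34.5% of 27025 promoters of the same length. TTTGAA was in 10 of 26 (38.5% against 16.3%) and CCCTC in 19 of 26 (73.1% against 59.7%). TTCGAA was in only 4 of 26 (15.4% against 1.34%). TTTCCCGC was in 3 (11.5% against 0.929%) and TTTGGCGC in 2 (7.69% against 0.437%), so these shares rest on few promoters. TTTCGCGC was in 0 of 26 member promoters, against 0.255% of all. No motif searched contains another on either strand, and a match describes letters and not binding.

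Levels differed widely among the 33 genes. Per kilobase of transcript, averaged over the 3 tables, the condensin ATPase Smc4 stood highest at 3234 normalized counts, with its partner Smc2 at 1800 and the condensin I subunit Ncapd2 at 2172. The cohesin kleisin Rad21 stood at 2170, the ATPases Smc1a at 1925 and Smc3 at 1852, and the mitotic HEAT-repeat subunits Stag2 at 1198 and Stag1 at 500. The meiotic kleisin Rec8 stood at 242 and its partner Stag3 at 27.1, while Smc1b had a mean of 1.02, 1.37 and 2.51 normalized counts in the 3 tables and no adjusted p. Nsmce4a, an SMC5/6 subunit, stood at 2129, above Smc6 at 837 and Smc5 at 452. These levels are means over a genotype and WT together, so they show which genes are abundant and not how genotypes differ.

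**Figure D1:**
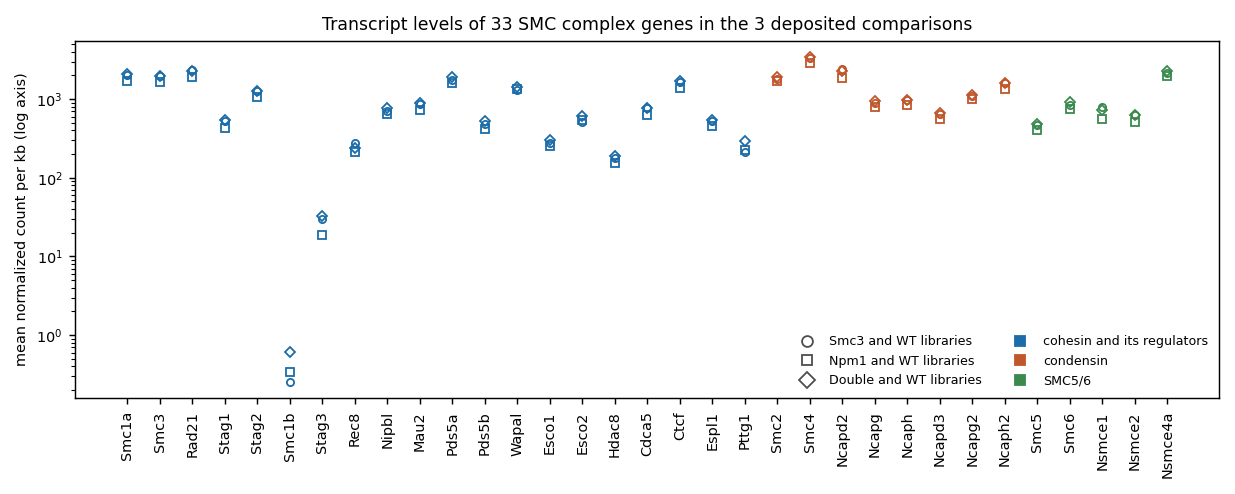
Mean normalized count per kilobase of transcript (log axis) of the 33 genes, with circles, squares and diamonds for the tables that compare Smc3, Npm1 and Double with WT and colours for the 3 complexes. Smc4 is highest, and the meiotic genes Stag3 and Smc1b lie lowest.

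In the comparison of Smc3 with WT, 0 of the 32 genes tested passed the threshold, beside 14.5% of the 12750 genes tested (7.94% higher and 6.6% lower) by the authors' deposited table. At an unadjusted p under 0.05 there were 2, Pds5a and Ncaph2. The fold changes ran from -0.23 to 0.12 with a median of -0.06, and 26 of 32 lay below 0 (30 with the trend over GC content removed, as described below), where the median of all genes was -0.0025. The Smc3 transcript itself was at -0.02 ± 0.11 (standard error, 95% interval -0.24 to 0.20, 3 against 3 libraries) in the authors' deposited table. That interval covers the whole transcript, which can miss a deletion of a few exons, so the value does not check the labels. The partner subunits Rad21 at -0.06 ± 0.10 and Smc1a at -0.15 ± 0.10 in the authors' deposited table also stayed short of the threshold. Stag1 and Stag2 stood at 0.08 ± 0.11 and 0.03 ± 0.12 in the authors' deposited table.

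The release factor Wapal, which opens the cohesin ring, had the lowest fold change of the list in Smc3, at -0.23 ± 0.12 (adjusted p = 0.17) by the authors' deposited table. Pds5a, a HEAT-repeat partner of Wapal, stood at -0.20 ± 0.08 (adjusted p = 0.0891) by the authors' deposited table. The cohesin loader genes Nipbl and Mau2 stood at -0.01 ± 0.10 and -0.09 ± 0.09 in the authors' deposited table. Among condensin genes, 8 of 8 lay below 0, with Ncapg2 of condensin II at -0.21 ± 0.12 and Ncaph2 at -0.19 ± 0.09 in the authors' deposited table.

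**Figure D2:**
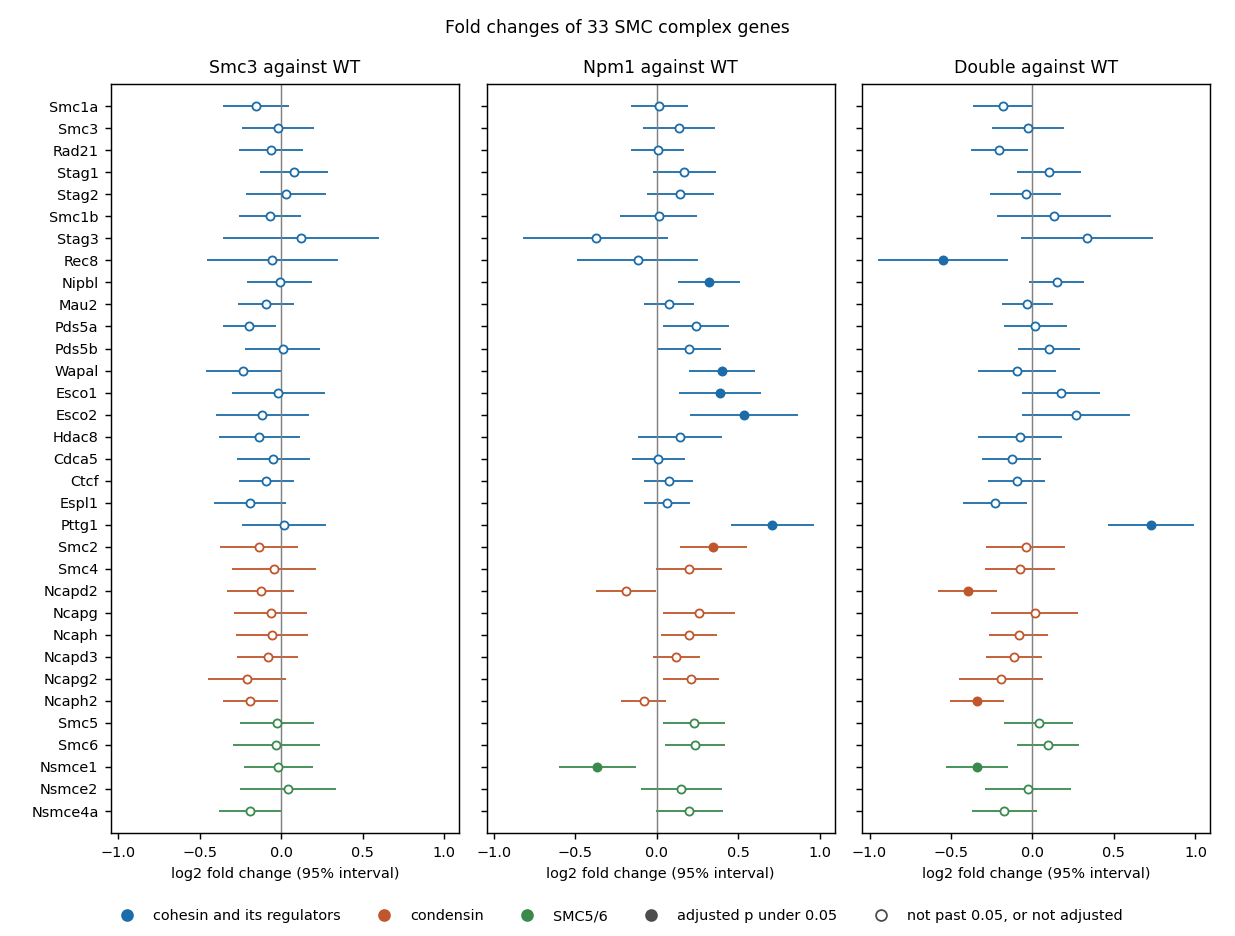
Log2 fold changes of the 33 genes in Smc3, Npm1 and Double against WT, as points with 95% intervals; filled points passed an adjusted p of 0.05. Pttg1 stands to the right at 0.71 in Npm1 and 0.73 in Double, and lies at 0.02 in Smc3.

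In the comparison of Npm1 with WT, 6 genes rose and 1 fell among the 32 tested, which is 21.9% beside 18.1% of the 12324 genes tested (9.1% higher and 9% lower) by the authors' deposited table. The share was close to the background, so the count alone does not set the list apart. The median fold change was 0.16, against 0.014 for all genes, and 27 of 32 lay above 0 (24 with the GC trend removed). Pttg1, the securin that keeps separase inactive until anaphase, rose 1.63-fold, by 0.71 ± 0.13 on the log2 scale (DESeq2 adjusted p = 5.86e-06) per the authors' deposited table. Its protease partner Espl1, the separase, stood at 0.06 ± 0.07 in the authors' deposited table.

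Wapal rose by 0.40 ± 0.10 (DESeq2 adjusted p = 0.00258) and the loader Nipbl by 0.32 ± 0.10 (adjusted p = 0.0122) per the authors' deposited table. Both acetyltransferases of Smc3 rose in the authors' deposited table, Esco2 by 0.53 ± 0.17 (DESeq2 adjusted p = 0.0163) and Esco1 by 0.39 ± 0.13 (adjusted p = 0.0221). Esco2 establishes cohesion during replication, and Esco1 acts throughout interphase. The condensin ATPase Smc2 rose by 0.35 ± 0.10 (DESeq2 adjusted p = 0.011) per the authors' deposited table. Nsmce1, the RING subunit of SMC5/6, was the 1 gene that fell, by 0.36 ± 0.12 (DESeq2 adjusted p = 0.021) per the authors' deposited table. Just outside the threshold came Smc6, Ncapg2, Smc5, Pds5a, Ncapg and Ncaph, with adjusted p from 0.0657 to 0.0987 and fold changes of 0.19 to 0.26 in the authors' deposited table. The core subunits stood at 0.00 ± 0.08 for Rad21, 0.02 ± 0.09 for Smc1a, 0.14 ± 0.11 for Smc3, 0.15 ± 0.10 for Stag2 and 0.17 ± 0.10 for Stag1 in the authors' deposited table.

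In the comparison of Double with WT, 1 gene rose and 4 fell among 32, which is 15.6% beside 18.7% of the 13217 genes tested (8.87% higher and 9.82% lower) by the authors' deposited table. The median fold change was -0.06, against 0.010 for all genes, and 21 of 32 lay below 0 (27 with the GC trend removed). Pttg1 rose 1.66-fold, by 0.73 ± 0.13 (DESeq2 adjusted p = 3.4e-06), close to its value in Npm1, in the authors' deposited table. Ncapd2, a HEAT-repeat subunit of condensin I, fell by 0.40 ± 0.09 (DESeq2 adjusted p = 0.000374) per the authors' deposited table. Ncaph2, the kleisin of condensin II, fell by 0.34 ± 0.08 (DESeq2 adjusted p = 0.000959) per the authors' deposited table. Nsmce1 fell by 0.34 ± 0.10 (DESeq2 adjusted p = 0.00501) per the authors' deposited table, as it did in Npm1. The meiotic kleisin Rec8 fell by 0.55 ± 0.20 (DESeq2 adjusted p = 0.0412) per the authors' deposited table, and its adjusted p was 0.0603 when genes of low mean were kept in the adjustment. Rad21 at -0.20 ± 0.09 (adjusted p = 0.095) and Espl1 at -0.23 ± 0.10 (adjusted p = 0.0878) came just outside by the authors' deposited table. Of the exon bases of Ncaph2, 19.7% overlap Sco2 and 12.7% overlap Tymp on the opposite strand, and the libraries carry no record of strand, so its value is uncertain. The same holds for Ncapg, of which 13.4% overlaps Lcorl.

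The remaining values of the cohesin genes did not pass the threshold. The mitotic core in Double stood at -0.18 ± 0.09 for Smc1a, -0.03 ± 0.11 for Smc3, -0.04 ± 0.11 for Stag2 and 0.10 ± 0.10 for Stag1 in the authors' deposited table. For the Smc3 transcript the 95% intervals ran from -0.08 to 0.36 in Npm1 and from -0.25 to 0.20 in Double, which leaves changes of that size undetected. Mau2, the partner of Nipbl in the loader, stood at 0.07 ± 0.08 in Npm1 and -0.03 ± 0.08 in Double, and Nipbl in Double at 0.15 ± 0.09, in the authors' deposited table. Pds5b, the paralogue of Pds5a, stood at 0.01 ± 0.12 in Smc3, 0.20 ± 0.10 in Npm1 and 0.10 ± 0.10 in Double in the authors' deposited table. Pds5a stood at 0.24 ± 0.10 in Npm1 and 0.02 ± 0.10 in Double, and Wapal at -0.10 ± 0.12 in Double, in the authors' deposited table.

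Hdac8, the X-linked deacetylase that recycles Smc3, stood at -0.13 ± 0.13 in Smc3, 0.14 ± 0.13 in Npm1 and -0.08 ± 0.13 in Double in the authors' deposited table. Cdca5, or sororin, which shields acetylated cohesin from Wapal, stood at -0.05 ± 0.12, 0.01 ± 0.08 and -0.13 ± 0.09 in the same order in the authors' deposited table. Esco1 and Esco2 stood at 0.17 ± 0.12 and 0.27 ± 0.17 in Double and at -0.02 ± 0.15 and -0.12 ± 0.14 in Smc3 in the authors' deposited table. The loop anchor Ctcf stood at -0.09 ± 0.09, 0.07 ± 0.08 and -0.10 ± 0.09 in Smc3, Npm1 and Double in the authors' deposited table, and 7.61% of its exon bases overlap Gm5914 on the opposite strand.

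Among condensin genes, Smc4 stood at -0.04 ± 0.13, 0.20 ± 0.10 and -0.08 ± 0.11 in Smc3, Npm1 and Double in the authors' deposited table. Ncapd3, a HEAT-repeat subunit of condensin II, stood at -0.08 ± 0.10, 0.12 ± 0.07 and -0.12 ± 0.09 in the authors' deposited table. Over the 8 condensin genes 0 were called in Smc3, 1 rose in Npm1 and 2 fell in Double, with medians of -0.10, 0.20 and -0.10. These counts are 0%, 12.5% and 25%, beside 14.5%, 18.1% and 18.7% of all genes tested. With 8 genes they do not set condensin apart. Both condensin subunits that fell in Double lay below 0 in the other comparisons as well, Ncapd2 at -0.13 ± 0.11 in Smc3 and -0.19 ± 0.09 in Npm1, and Ncaph2 at -0.08 ± 0.07 in Npm1 (0.02 with the GC trend removed), none of them called in the authors' deposited table. In SMC5/6, the SUMO ligase Nsmce2 stood at 0.04 ± 0.15, 0.15 ± 0.13 and -0.03 ± 0.13 in the authors' deposited table. Smc5 and Smc6 stood at 0.04 ± 0.11 and 0.10 ± 0.10 in Double and both at -0.03 in Smc3, with standard errors of 0.12 and 0.14, in the authors' deposited table. Nsmce1 stood at -0.02 ± 0.11 in Smc3 in the authors' deposited table, and its difference between Double and Smc3 was -0.32 ± 0.14 with an adjusted p of 1.

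**Figure D3:**
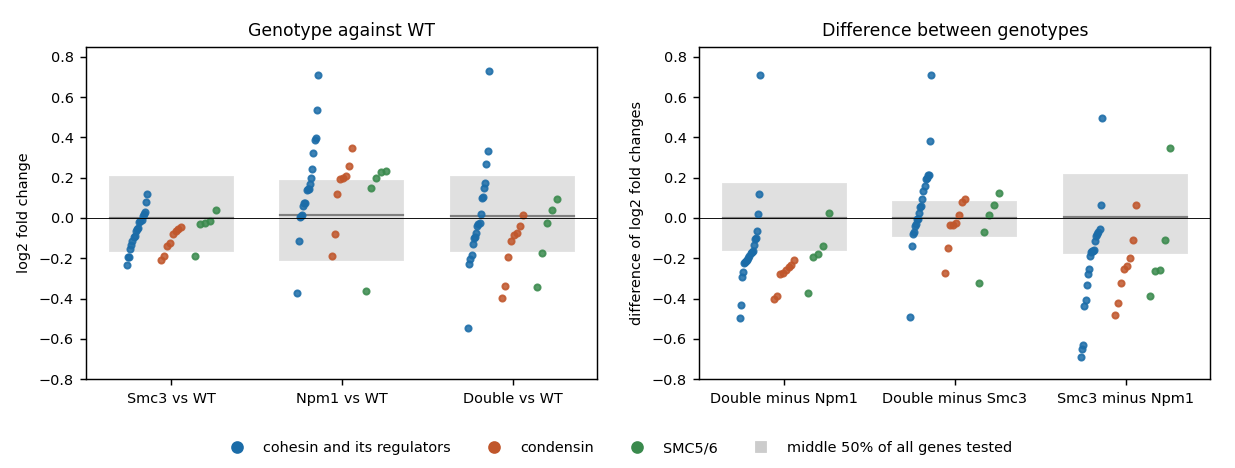
Log2 fold changes of the genes against WT (left) and differences between genotypes (right), coloured by complex, with grey boxes for the middle 50% of all genes tested and a grey line for their median. In Npm1 27 of 32 genes lie above 0, and in each difference that subtracts Npm1 29 of 33 lie below it.

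Transcript GC content moved with these fold changes across the whole tables. In Npm1 the median of all genes fell from 0.20 for transcripts under 42% GC through 0.15, 0.08 and -0.01 to -0.13 for those of 54% or more, and in Double from 0.17 to -0.11. In Smc3 the same medians ran from 0.07 to -0.04. The 6 genes that rose in Npm1 have 37.8% to 46% GC, and the 4 that fell in Double 52.7% to 56.7%. With the trend removed, 1 gene of the list stayed past the threshold in Npm1, beside 11.3% of all genes, Pttg1 at 0.61 (adjusted p = 0.000168), and the list's median was 0.03. Of the calls lost, Nsmce1 moved little, from -0.36 to -0.32 (adjusted p = 0.0559). Esco2 moved from 0.53 to 0.32, Wapal from 0.40 to 0.23, Esco1 from 0.39 to 0.19, Smc2 from 0.35 to 0.15 and Nipbl from 0.32 to 0.17, with adjusted p from 0.123 to 0.349. Among values that had not passed the threshold some changed sign, such as Smc3 from 0.14 to -0.01 and Stag2 from 0.15 to -0.07 in Npm1. In Double 5 were called beside 14.2% of all genes, 4 of them shared, with Rec8 at -0.46 (adjusted p = 0.113) lost and Rad21 at -0.30 (adjusted p = 0.00912) gained, and in Smc3 Pds5a at -0.24 (adjusted p = 0.0326) was gained. The list's median moved away from 0 in these comparisons, from -0.06 to -0.16 in Double and from -0.06 to -0.12 in Smc3.

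**Figure D4:**
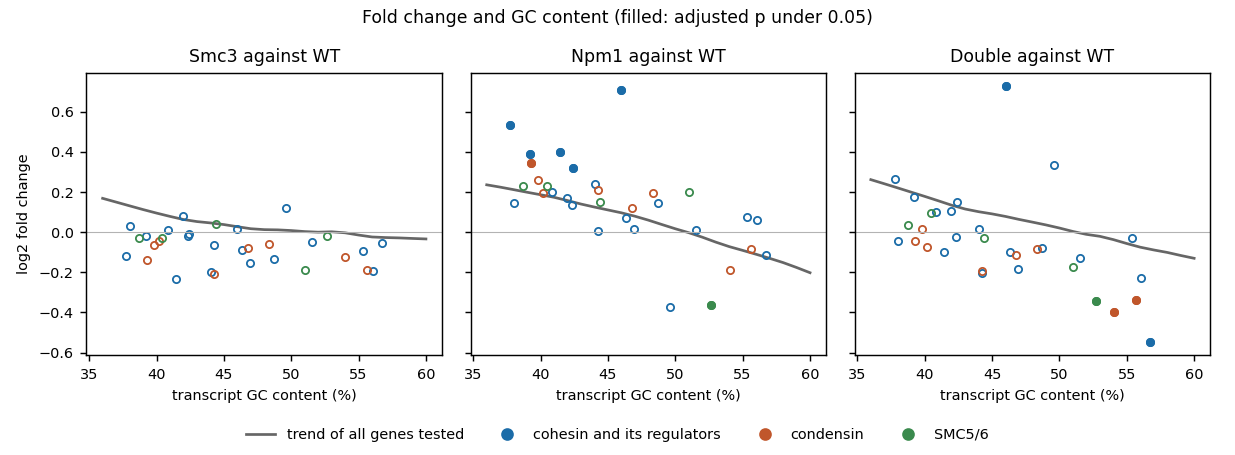
Log2 fold change against transcript GC content in percent for the genes tested, in Smc3, Npm1 and Double against WT, with a line for the trend of all genes; filled points passed an adjusted p of 0.05. The filled points above 0 in Npm1 lie at 37.8% to 46% GC, where the line is above 0, and the highest is Pttg1.

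Differences between genotypes were tested on the deposited fold changes with a normal z test adjusted over all genes. Between Smc3 and Npm1, 7 of 33 genes differed, all lower in Smc3, beside 13.9% of 18282 genes (7.57% higher and 6.36% lower in Smc3). Those 18282 include many genes of low mean. Among genes with a mean of at least 50, 7 of 32 were called beside 27.2% of 11046 genes, so the count does not set the list apart. Pttg1 differed by -0.69 ± 0.18 (adjusted p = 0.00393) and Wapal by -0.63 ± 0.16 (adjusted p = 0.00188). The others were Esco2 at -0.65 ± 0.22, Smc2 at -0.48 ± 0.16, Pds5a at -0.44 ± 0.13, Ncapg2 at -0.42 ± 0.15 and Nsmce4a at -0.39 ± 0.14, with adjusted p from 0.0124 to 0.0493. Wapal, Pttg1, Esco2 and Pds5a kept the call with the GC trend removed.

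Between Double and Npm1, 1 of 33 genes differed beside 6.99% of 18343 genes (4.09% higher and 2.89% lower in Double). It was Wapal, lower in Double by a difference of -0.50 ± 0.16 (adjusted p = 0.0332). Among genes with a mean of at least 50, 1 of 32 was called beside 14.4% of 11050 genes. The median difference over the list was -0.21, and 29 of 33 lay below 0, where the median of all genes was -0.0012. Below 0 also lay 20 of 20 S phase genes (median -0.30) and 19 of 20 G2 and M phase genes (-0.22). The same held for 25 of 28 other genes of the same processes (-0.23), so the shift was not particular to this list. Between Smc3 and Npm1, 19 of 20 S phase and 18 of 20 G2 and M phase genes lay below 0. Between Double and Smc3, 0 of 33 passed beside 0.262% of 18729 genes (0.0801% higher and 0.182% lower in Double). The nearest was Pttg1, at 0.71 ± 0.19 (adjusted p = 0.0543), and Nsmce1 was the other gene with an unadjusted p under 0.05. Against the sum of both single genotypes, 0 of 33 differed beside 0% of 18147 genes, and 0 had an unadjusted p under 0.05. The median departure from that sum was still -0.14, with 29 of 33 below 0, against -0.0034 for all genes. Condensin had 8 of 8 below 0 (median -0.19), and G2 and M phase genes 19 of 20 (-0.14). This shift as a whole was not tested. For Pttg1 that departure was 0.00 ± 0.23, with an interval from -0.44 to 0.45.

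Among 30 other genes of the same processes, 28 were tested. In Smc3, 0 rose and 3 fell, in Npm1 4 rose and 2 fell, and in Double 0 rose and 5 fell, by the calls of the authors' deposited table. These are 10.7%, 21.4% and 17.9%, beside 14.5%, 18.1% and 18.7% of all genes tested. The counts were close to the background and do not set these genes apart. Ndnl2, another SMC5/6 subunit, was called lower in all 3 tables of the authors' deposited tables, at -0.33 ± 0.10 in Smc3, -0.37 ± 0.11 in Npm1 and -0.43 ± 0.11 in Double. Ldb1, which bridges enhancers and promoters in blood cells, fell by 0.63 ± 0.12 in Double (DESeq2 adjusted p = 7.92e-06) and by 0.28 ± 0.09 in Npm1 in the authors' deposited table. The mitotic kinase Plk1, which promotes cohesin release in prophase, fell by 0.39 ± 0.10 in Double and by 0.29 ± 0.10 in Smc3 in the authors' deposited table. The looping factor Yy1 and the chromosomal passenger gene Incenp fell in Double by 0.25 ± 0.08 and 0.28 ± 0.09, and the clamp loader gene Chtf18 fell in Smc3 by 0.31 ± 0.12 (DESeq2 adjusted p = 0.0499) per the authors' deposited table. In Npm1 the centromere guards Bub1 and Sgol1 rose by 0.32 ± 0.11 and 0.29 ± 0.11 in the authors' deposited table. Ankrd32, which brings SMC5/6 to DNA damage, rose by 0.34 ± 0.12 and the replication fork gene Wdhd1 by 0.21 ± 0.08 in that table. The values of these other genes are given without the GC trend removed, and its part in them was not tested.

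Cell cycle genes are given for comparison. Of 20 S phase genes, 0 rose and 9 fell in Smc3, 2 rose and 0 fell in Npm1, and 0 rose and 9 fell in Double, with medians of -0.23, 0.03 and -0.25 in the authors' deposited table. Of 20 G2 and M phase genes, 0 rose and 1 fell in Smc3, 0 were called in Npm1, and 0 rose and 3 fell in Double, with medians of -0.08, 0.08 and -0.14 in the authors' deposited table. The replication licensing gene Cdt1 fell by 0.54 ± 0.10 in Double and by 0.37 ± 0.10 in Smc3, and Cenpa, the centromeric histone, by 0.42 ± 0.09 and 0.29 ± 0.10, in the authors' deposited table. The part of cell cycle, erythroid content, the male libraries and depth in the values of the SMC complex genes was not tested.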

How the data were processed

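RNA-seq of 12 libraries (3 per genotype group) was analysed. Per the submitters' processing notes, reads were aligned with STAR to mm9 and compared with DESeq2. Tool versions, like the counter of reads, were not given in the sources used here. Per the file headers, each of 3 deposited tables holds 33018 transcripts with a mean normalized count (a signal over both groups), a log2 fold change and its standard error, a Wald score, and p-values with adjusted p-values.

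One transcript per symbol was kept, the one of highest mean over the tables. Differences between genotypes were tested with a z test on the deposited log2 fold changes. Its variance summed the squared standard errors and so counts WT more than once. The p-values were then Benjamini-Hochberg adjusted (scipy 1.17.1, statsmodels 0.14.6, pandas 2.3.3). The test was also run on simulated data, and no outcome of that run is given here. That run is therefore no evidence of how the test behaves on shrunk fold changes or at low means. The tables were normalized separately. Transcripts were assigned GC content and length from GENCODE M21 on GRCm38, and a lowess trend of span 0.3 was removed as an alternative. Depth was inferred from means under 0.6, which were whole-read sums at a tolerance of 1e-09.

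The members, gene lists and tests were chosen with earlier results of these data known. Named are all 33 genes, Npm1, up to 8 called genes of the related-process lists per comparison by smallest adjusted p, and up to 3 per marker, cell cycle or sex-linked list. Genes outside this rule are given only as counts. Leaving out replicates was not run.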

Additional observations from a re-analysis of the deposited data

Results flagged for a closer look

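In 8 instances the effect of 1 genotype differed from that of another by the test of the difference itself. Of all genes, 13.9% differed between Smc3 and Npm1 and 6.99% between Double and Npm1. Among genes with a mean of at least 50 the shares were 27.2% and 14.4%, so the counts do not set the list apart. Wapal was lower in Double than in Npm1, with a difference of -0.495. In Smc3 against Npm1, Wapal differed by -0.631, Pttg1 by -0.691, Esco2 by -0.650, Smc2 by -0.483, Pds5a by -0.439, Ncapg2 by -0.420 and Nsmce4a by -0.387, all lower in Smc3. Over 8 alternatives the adjusted p of Pttg1 ran from 2.47e-06 to 0.00841 and that of Wapal from 4.31e-07 to 0.00575 between Smc3 and Npm1. With the GC trend removed, Smc2 stood at -0.43, Ncapg2 at -0.36 and Nsmce4a at -0.38, with adjusted p of 0.0524, 0.0893 and 0.0562. Wapal between Double and Npm1 ran from 0.000194 to 0.0406. S phase genes differed in the same pairs, with 8 of 20 lower in Smc3 than in Npm1 (6.36% of all genes) and 5 of 20 lower in Double than in Npm1 (2.89%). Their part in these values was not tested.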

How the results depend on the processing

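No called value changed direction under the alternatives run. Among values short of the threshold, signs changed with the GC trend removed in 4 of 32 genes in Smc3, 7 in Npm1 and 8 in Double, and in at most 2 under any other setting of these comparisons. Setting the median of all genes to 0 or taking the transcript of lowest p changed no call of the list. Each count below stands beside the share of all genes called under the same setting. In Smc3, 1 gene was called at an adjusted p of 0.1 (22.2%) and 1 with the GC trend removed (14.4%). In Npm1 the count was 2 at 0.01 (7.56%), 13 at 0.1 (26.5%) and 1 with the GC trend removed (11.3%). Between Double and Npm1 it was 0 at 0.01 (3.04%) and 10 when the variance left out the share of WT (20.7%). Between Double and Smc3, 1 gene, Pttg1, was called with the second transcript (0.257%), a mean of at least 50 (0.471%), an adjusted p of 0.1 (0.331%) or the WT share removed (1.43%). Between Smc3 and Npm1 the count was 2 at 0.01 (6.74%), 4 with the GC trend removed (13.2%) and 13 with the WT share removed (30.8%). Apart from the thresholds, the cause was not tested. Pttg1 kept its call in Npm1 and Double under all 8 alternatives. No paired analysis was possible because the deposited tables hold no values per library, and for the same reason leaving out each replicate was not run.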

Other observations

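Npm1 itself stood at -0.26 ± 0.11 in Smc3 (DESeq2 adjusted p = 0.0805), 0.22 ± 0.16 in Npm1 and -0.06 ± 0.16 in Double in the authors' deposited tables. The meiotic cohesin gene Stag3 stood at 0.12 ± 0.24, -0.37 ± 0.23 and 0.33 ± 0.21 in the 3 comparisons of the authors' deposited tables. Its difference between Double and Npm1 was 0.71 ± 0.31 (adjusted p = 0.164). The X-linked members Smc1a, Stag2 and Hdac8 passed the threshold in 0 of the 3 comparisons.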
